A study of Mus musculus with 14 samples.

Results

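Socs1, Socs3, Socs2 and Cish encode 4 members of the suppressor of cytokine signalling (SOCS) family. They were taken by name from the table of natural killer (NK) cell counts, which lists 10210 genes. All 4 were listed, and all 4 were among the 8471 genes with enough counts to be tested. The NK cells came from female BALB/c mice of 8 weeks in 3 groups. Healthy spleen NK (n = 3) came from mice without a tumour. Tumour-bearing spleen NK (n = 4) came from spleens of mice that had received 100000 4T1-GFP cells in the lower left mammary fat pad, and tumour NK (n = 4) came from such tumours. The 4T1 line derives from a mouse mammary carcinoma, and GFP marks the injected cells. Each library holds NK cells sorted for CD45 and NKp46 and against GFP, EPCAM, CD3, CD14 and CD31, so each value is an average over many cells. The spleens were taken as controls for NK cells inside the tumour, per the series' design text. Tumours were digested with collagenase A and DNase for 20 min at 37 °C, whereas spleens were crushed and kept on ice during red cell lysis. Tissue and handling therefore cannot be told apart in any comparison of tumour with spleen.

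SOCS proteins are the feedback arm of the JAK-STAT pathway. A cytokine receptor activates JAK kinases, which phosphorylate the receptor and STAT transcription factors, and the STATs then switch on the SOCS genes themselves. The proteins made bind phosphorylated receptors or the kinases and pass them to a ubiquitin ligase for removal. SOCS1 and SOCS3 also block the JAK kinase directly. In NK cells the protein of Cish, called CIS, is known as an internal brake on the response to interleukin 15, the cytokine that NK cells need to survive.

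STATs and interferon regulatory factors act through short motifs near the start sites of their target genes, so the stretch around the start site is printed for the suppressors. RefSeq's promoter table for GRCm38.p6 matched 3 of the 4 genes, Cish, Socs1 and Socs3. Each window of 280 bases runs from 250 bases before the start site to the 30 bases that begin at it, and is written 5′ to 3′ on the gene's own strand. The windows are chr9:107296409-107296688 on the plus strand for Cish, chr16:10785507-10785786 on the minus strand for Socs1 and chr11:117969337-117969616 on the minus strand for Socs3. Capitals mark matches to TTCNNNGAA, the GAS motif that STAT dimers bind, or to GAAA followed after any 2 bases by GAAA again, a pair of half-sites of the kind that interferon regulatory factors bind. Both strands were searched.
Cish: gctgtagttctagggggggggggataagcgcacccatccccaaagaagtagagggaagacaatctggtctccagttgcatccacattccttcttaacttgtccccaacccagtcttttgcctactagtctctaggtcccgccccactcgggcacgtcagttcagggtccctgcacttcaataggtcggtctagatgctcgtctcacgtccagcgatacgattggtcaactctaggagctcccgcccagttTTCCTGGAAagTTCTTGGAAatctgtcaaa
Socs1: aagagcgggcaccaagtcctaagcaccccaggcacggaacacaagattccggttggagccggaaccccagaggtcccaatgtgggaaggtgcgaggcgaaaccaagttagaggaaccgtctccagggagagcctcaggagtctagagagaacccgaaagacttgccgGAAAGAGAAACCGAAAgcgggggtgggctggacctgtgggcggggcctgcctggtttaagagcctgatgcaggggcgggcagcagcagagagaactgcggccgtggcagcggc
Socs3: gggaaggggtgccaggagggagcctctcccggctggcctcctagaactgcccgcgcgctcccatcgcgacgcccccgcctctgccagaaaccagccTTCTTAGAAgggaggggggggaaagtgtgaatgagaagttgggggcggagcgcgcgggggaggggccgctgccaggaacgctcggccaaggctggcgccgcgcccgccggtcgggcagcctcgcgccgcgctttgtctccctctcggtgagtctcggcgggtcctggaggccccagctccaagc
Cish held TTCCTGGAA at positions 1 to 9 and TTCTTGGAA at positions 12 to 20, counted from 1 at the start site. Socs3 held the single GAS motif TTCTTAGAA from 154 to 146 bases before its start site. Socs1 held none of the GAS letters, but a run in which GAAAGAGAAA and GAAACCGAAA overlap by 4 bases, from 83 to 68 bases before the start site. Among the table's 32851 windows of this length, 7.83% held the GAS letters, 0.408% held them at 2 or more positions, 3.28% held the GAAA pair, and 0.21% held it at 2 or more positions. A match describes the letters only, and no binding was measured here.

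In the GENCODE M21 annotation of GRCm38 the 4 protein-coding genes lie apart from each other. Cish (ENSMUSG00000032578.7) is at chr9:107296026-107302784 and Socs2 (ENSMUSG00000020027.18) at chr10:95385362-95417180. Socs3 (ENSMUSG00000053113.3) is at chr11:117966079-117970047 and Socs1 (ENSMUSG00000038037.5) at chr16:10782240-10785536. The start sites used for the windows, 107296659 for Cish and 117969366 for Socs3, lie inside these loci, downstream of their 5′ ends. That of Socs1, 10785536, is the 5′ end of its locus. Cish overlaps the predicted genes Gm17040 and Gm17041 on the opposite strand, and whether the counting used strand is not given in the sources used here. The other 3 overlap no annotated gene.

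Levels are given in CPM, a gene's counts relative to the scaled total of its library. Totals over the listed genes ran from 559688 to 1966963, so that a count of 0 allows up to 1.54 to 4.62 CPM on this scale by counting error alone. The 14 listed NK marker genes of 15 summed to 19410 to 24650 CPM in tumour NK and 27420 to 30330 in the spleens of tumour-bearing mice. Most of this came from Gzma, with means of 13270 and 17490 CPM, and Nkg7, with 3005 and 4527, in the same order. Not every gene of this list was high. Of other cells' markers, 7 of 15 neutrophil genes were listed, and their sum was 70.5 to 205.8 CPM in tumour NK against 1.45 to 14.9 in tumour-bearing spleens. The 2 listed carcinoma genes of 10, Cdh1 and Epcam, summed to 27.7 to 54.9 CPM against 0 to 2.79. The 10 listed macrophage and monocyte genes of 15 summed to 1609 to 1982 CPM against 833.9 to 1418, mostly from Ly6c2 and Ccr2. The macrophage receptor gene Csf1r was at 0 in every spleen library. It averaged 2.17 ± 3.435 CPM (SD, n = 4) in tumour NK, uneven between libraries, with at most 12 counts in any. That mean lies within the range that a count of 0 allows, although 12 counts lie above it. Csf1r had the lowest mean of the 10, and all 10 had a higher mean in tumour NK than in tumour-bearing spleens. Apoe averaged 34.8 ± 46.95 CPM (SD, n = 4) against 5.18 ± 1.63 (SD, n = 4). Lyz2 averaged 14.3 ± 17.35 against 1.96 ± 1.94, and Cd14 11.3 ± 6.80 against 0.738 ± 0.70, with the same n. The 8 listed type 1 innate lymphoid cell genes of 9 summed to 582.5 to 734.0 CPM against 84.4 to 204.3. The dendritic cell gene of 10 that was listed lay at 12.4 to 22.9 CPM against 3.62 to 5.34, and the endothelial gene Pecam1, of 8, at 139.1 to 201.6 against 74.8 to 94.2. The 4 listed T cell genes of 12 summed to 189.8 to 244.7 CPM against 264.6 to 342.1. The part of these cells in the results below was not tested. The spleen libraries also split on the second principal component, with healthy replicate 1 and tumour-bearing replicates 1 and 2 apart from the other 4, and no label accounts for it.

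All 4 suppressors were higher in tumour NK than in NK cells from the spleens of tumour-bearing mice, in every library. The rise was 13.8-fold for Cish, 8.50-fold for Socs3, 3.38-fold for Socs2 and 2.24-fold for Socs1. By the quasi-likelihood test of edgeR, at an adjusted p under 0.05, 15.8% of all tested genes were called higher in this comparison, and 16.5% had tumour libraries that all lay above the spleen libraries. Ordered by fold among the 8471 genes, Cish stood at place 63, Socs3 at 102, Socs2 at 312 and Socs1 at 581. In such bulk samples, more cells that carry a transcript and more of it per cell cannot be told apart.

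**Figure D1:**
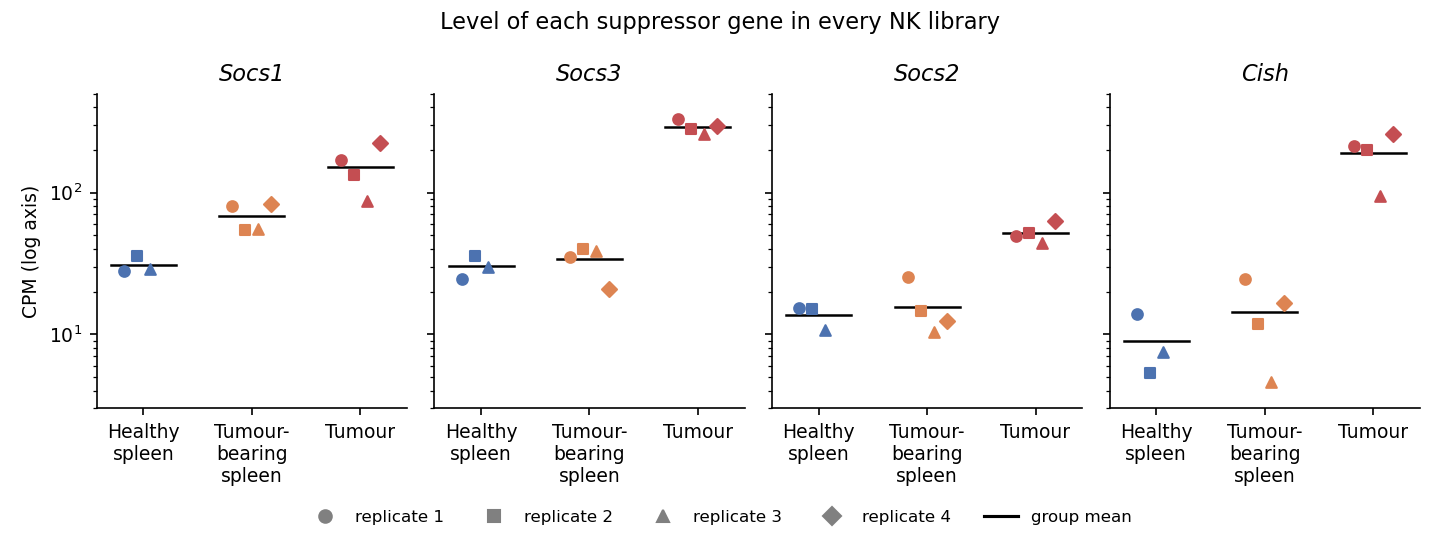
CPM on a log axis (vertical) of Socs1, Socs3, Socs2 and Cish in each NK library, by group; marker shapes are replicate numbers and bars are group means. Tumour libraries lie above all spleen libraries for each gene, and Socs1 alone among the 4 has tumour-bearing spleens above all healthy spleens.

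Cish, whose product restrains interleukin 15 and interleukin 2 signalling, had the largest rise. Its level was 214.0, 198.5, 93.8 and 258.6 CPM in tumour NK replicates 1 to 4, and 24.4, 11.7, 4.63 and 16.6 CPM in the spleens of tumour-bearing mice. Healthy spleens had 13.9, 5.35 and 7.43 CPM. Tumour replicate 3 was the lowest of its group and still lay 3.85 times above the highest tumour-bearing spleen. The means were 191.2 ± 69.8 CPM (SD, n = 4) in tumour NK, 14.3 ± 8.31 (SD, n = 4) in tumour-bearing spleens and 8.88 ± 4.44 (SD, n = 3) in healthy spleens. The log2 difference between tumour and tumour-bearing spleen was 3.79 with an SE of 0.45 and a 95% interval from 2.79 to 4.78 (adjusted p = 0.000116). The spleen libraries hold few Cish reads, and tumour-bearing replicate 3 had 9 counts, for which the exact Poisson interval at 95% runs from 2.12 to 8.79 CPM. Against healthy spleen the log2 difference was 4.60 with an SE of 0.57 (adjusted p = 0.000173).

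Socs2, best known as a brake on growth hormone signalling and like Cish a target of STAT5, had the lowest counts in the tumour. The tumour libraries held 49.2, 52.2, 43.9 and 62.8 CPM and the tumour-bearing spleens 25.2, 14.5, 10.3 and 12.3. In healthy spleens the level was 15.4, 15.0 and 10.7 CPM. Tumour-bearing spleen replicate 1 was the highest spleen library, and the lowest tumour library exceeded it 1.75 times. Means were 52.0 ± 7.94 CPM (SD, n = 4) in tumour NK and 15.6 ± 6.62 (SD, n = 4) in tumour-bearing spleens. The log2 difference was 1.76 with an SE of 0.24 and an interval from 1.25 to 2.27 (adjusted p = 1.66e-05). Against healthy spleens, with a mean of 13.7 ± 2.59 CPM (SD, n = 3), it was 1.92 with an SE of 0.29 (adjusted p = 3.71e-05).

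Socs3, the inhibitor of receptors that signal through gp130 such as those for interleukin 6, was the most even of the 4 within the tumour. Its level was 328.7, 279.7, 259.1 and 292.8 CPM in tumour NK, a coefficient of variation of 10.1%, and 35.1, 40.2, 38.6 and 21.0 CPM in tumour-bearing spleens. Healthy spleens had 24.7, 35.8 and 29.7 CPM. The lowest tumour library lay 6.45 times above the highest tumour-bearing spleen, the widest gap of the 4 genes, and the 2 spleen groups overlapped. The log2 difference from tumour-bearing spleen was 3.09 with an SE of 0.17 and an interval from 2.72 to 3.45 (adjusted p = 1.16e-10). From healthy spleen it was 3.22 with an SE of 0.20 (adjusted p = 7.77e-10). The group means were 290.1 ± 29.2 CPM (SD, n = 4) in tumour, 33.7 ± 8.76 (SD, n = 4) in tumour-bearing spleen and 30.1 ± 5.61 (SD, n = 3) in healthy spleen.

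Socs1, the main inhibitor of interferon gamma signalling, had the smallest rise from tumour-bearing spleen to tumour. Tumour NK held 168.9, 131.9, 86.6 and 222.5 CPM, tumour-bearing spleens 80.8, 54.1, 55.1 and 83.2 CPM, and healthy spleens 27.7, 35.8 and 28.9 CPM. The lowest tumour library, replicate 3, was 1.04 times the highest tumour-bearing spleen, so these groups only just did not overlap. The log2 difference was 1.16 with an SE of 0.25 and an interval from 0.63 to 1.70 (adjusted p = 0.00301). Against healthy spleen it was 2.27 with an SE of 0.31 and an interval from 1.60 to 2.93 (adjusted p = 6.71e-05). Means were 152.5 ± 57.6 CPM (SD, n = 4), 68.3 ± 15.8 (SD, n = 4) and 30.8 ± 4.39 (SD, n = 3), in the order tumour, tumour-bearing spleen and healthy spleen.

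The comparison of tumour with healthy spleen shares its tumour libraries with the previous one, so its calls on the 4 genes are no second test. There 16.5% of all genes were called higher and 14% lower, and 18.5% had tumour libraries all above the healthy ones. The 4 suppressors were among both, with Cish 24.2-fold, Socs3 9.31-fold, Socs1 4.81-fold and Socs2 3.77-fold higher in the tumour. When tumour NK was set against each side of the spleen split alone, the log2 difference from tumour-bearing replicates 1 and 2 was 3.43 for Cish, 2.93 for Socs3, 1.41 for Socs2 and 1.18 for Socs1. From replicates 3 and 4 it was 4.21, 3.21, 2.16 and 1.11 in the same order, and all 8 values passed the test. Of all genes tested, 17.4% were called in either direction against replicates 1 and 2, and 32.6% against replicates 3 and 4. The sides had been taken from these same libraries.

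**Figure D2:**
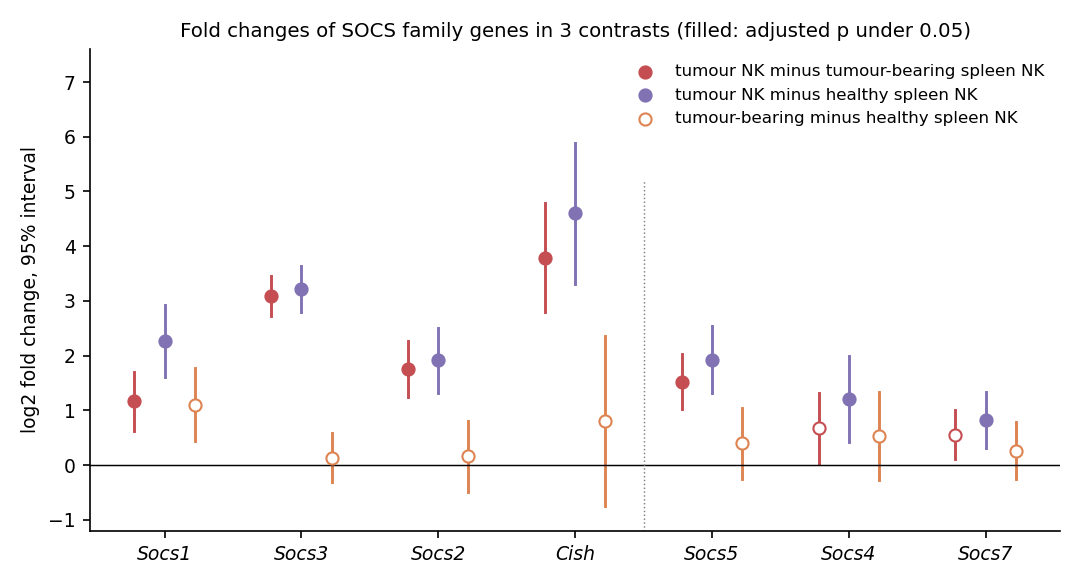
Log2 fold change (points) with its 95% interval (lines) in the 3 contrasts, for the 4 suppressors left of the dotted line and 3 further family members right of it; filled points have an adjusted p under 0.05. Contrasts with tumour NK are filled for all 4 suppressors, while no point of the spleen contrast is.

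Between the 2 spleen groups no suppressor passed edgeR's test at an adjusted p under 0.05, in a comparison where 1.58% of genes were called, 1.23% higher and 0.354% lower. At an unadjusted p under 0.05, which 11.2% of genes reached, 1 of the 4 passed, and in DESeq2, which called 1.85% of genes, 1 of the 4 was called, Socs1 in both cases. Socs1 came nearest, with a log2 difference of 1.10, an SE of 0.31 and an interval from 0.44 to 1.77, or 2.15-fold higher in tumour-bearing mice (unadjusted p = 0.00327, adjusted p = 0.114). Its 4 tumour-bearing libraries all lay above the 3 healthy ones, as did those of 6.52% of all genes. On 1 side of the spleen split Socs1 was 80.8 and 54.1 CPM against 27.7 in the healthy library, and on the other 55.1 and 83.2 CPM against 35.8 and 28.9. In DESeq2 the difference was 1.11 (adjusted p = 0.022). With the side as a term in a fit of the spleens alone it was 1.10 (adjusted p = 0.000174), where 8.34% of all genes were called and the side had been taken from these same libraries. The Socs1 libraries lay in the order healthy spleen, tumour-bearing spleen, tumour with no overlap between any of the groups, as did those of 117 genes, 1.38% of those tested. The lower step did not pass the main test, and the upper groups lay only 1.04 times apart.

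Heat shock genes differed between the same spleens. The 9 listed heat shock genes of 10, which encode chaperones that cells make under stress, summed to 1871 to 2412 CPM in tumour-bearing and 899.9 to 1189 CPM in healthy spleens, and 3 of the 8 tested were called higher, where 1.23% of all genes were. In tumour NK the sum was 1787 to 2113 CPM, and against tumour-bearing spleen 2 of the 8 were called higher and 1 lower, where 15.8% and 13.2% of all genes were. Hspa1a, 1 of these 2, averaged under 3 counts per library in both spleen groups. Their part in the Socs1 values was not tested.

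For the other 3 suppressors the libraries of both spleen groups overlapped. The log2 difference between tumour-bearing and healthy spleen was 0.13 for Socs3 with an interval from −0.31 to 0.58 (adjusted p = 0.895). For Socs2 it was 0.16 with an interval from −0.49 to 0.80 (adjusted p = 0.924). For Cish it was 0.81 with an interval from −0.74 to 2.36 (adjusted p = 0.761). The intervals of Socs3 and Socs2 end below a 2-fold rise, whereas that of Cish does not, and Cish had between 9 and 32 counts in any spleen library. The test of whether Socs1 differs from the others in this contrast was not run.

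Within a library, the ratio of the counts of 2 suppressors does not depend on scaling, and it shows whether the genes rose to the same extent. It was compared between tumour and tumour-bearing spleen for all 6 pairs by an exact two-sided permutation test over 4 against 4 libraries, which cannot give a p below 0.0286, with Benjamini-Hochberg adjustment over the 6. The log2 ratio of Cish to Socs1 was 0.32 ± 0.20 (SD, n = 4) in tumour NK and −2.46 ± 0.79 (SD, n = 4) in tumour-bearing spleen, a difference of 2.77. Cish counts exceeded Socs1 counts in all 4 tumour libraries and in no tumour-bearing spleen. The difference was 2.06 for Cish to Socs2, 2.04 for Socs3 to Socs1 and 1.33 for Socs3 to Socs2, each without overlap and each with an exact permutation p of 0.0286 (adjusted p = 0.0429). Cish and Socs3 could not be parted from each other, with a difference of 0.73 (exact permutation p = 0.286, adjusted p = 0.286) that was 0.19 without tumour-bearing spleen replicate 3, nor Socs2 from Socs1, with 0.71 (exact permutation p = 0.114, adjusted p = 0.137). In these libraries Cish and Socs3 rose more than Socs2 and Socs1 did, by a test chosen after the data were seen.

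**Figure D3:**
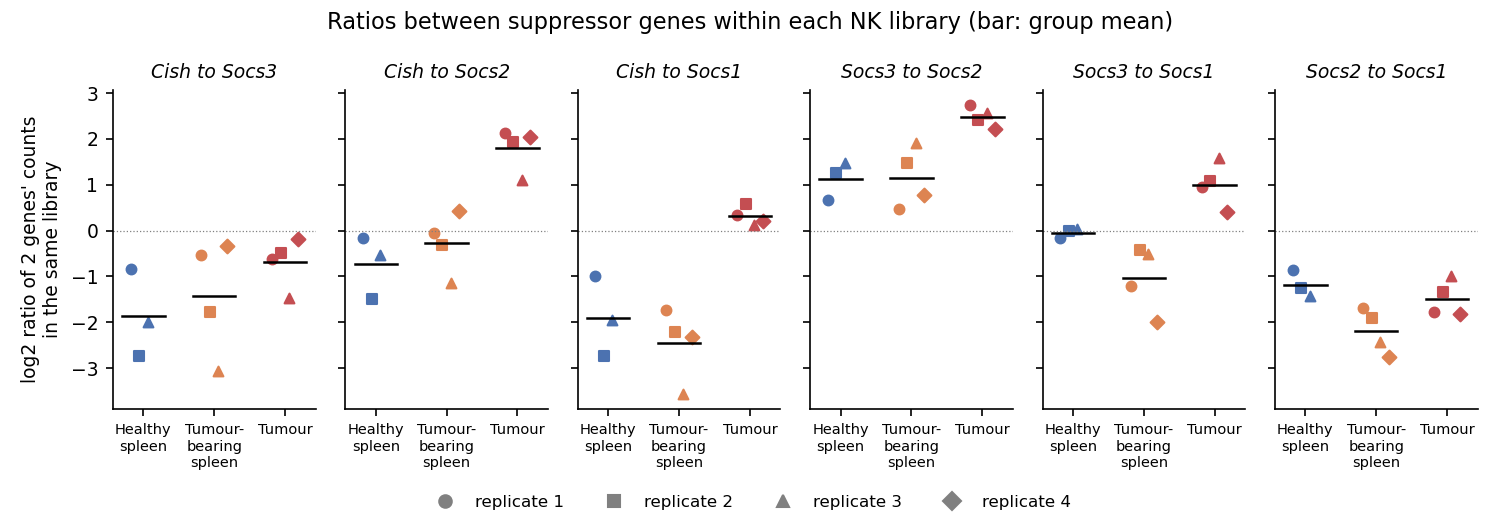
Log2 ratio of 2 suppressors' counts (vertical) in each NK library for the 6 pairs; marker shapes are replicate numbers and bars are group means. Tumour and tumour-bearing spleen libraries are apart in 4 pairs and overlap for Cish to Socs3 and Socs2 to Socs1.

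The 4 genes also differed in how they varied among libraries of 1 group. The highest tumour library exceeded the lowest 2.76 times for Cish and 2.57 times for Socs1, against 1.43 times for Socs2 and 1.27 times for Socs3. Tumour replicate 3 was the lowest tumour library for all 4 genes, and replicate 4 the highest for Cish, Socs1 and Socs2 but not for Socs3. Over the 11 libraries, deviations from the group mean correlated between Cish and Socs2 (r of 0.718), Cish and Socs1 (0.637) and Socs1 and Socs2 (0.497). With Socs3 the values were −0.313 for Cish, −0.045 for Socs1 and 0.138 for Socs2. These are descriptions over libraries that share a group and a scaling. The summed level of 18 immediate early genes, which cells switch on within minutes of handling or activation, was also lowest in tumour replicate 3, at 7806 CPM against 10750, 9507 and 9838 in the others. It was 1874 to 3023 CPM in tumour-bearing spleens and 1600 to 2065 in healthy spleens. Of those genes 16 were called higher and 1 lower in tumour than in tumour-bearing spleen, where 15.8% of all genes were called higher and 13.2% lower, and their part in the rise of the suppressors was not tested. In tumour replicate 3 the summed NK markers were the highest of the group, at 24650 CPM against 20600, 19410 and 20780. So were those of macrophages and monocytes, at 1982 CPM against 1609, 1688 and 1661, whereas neutrophil markers were highest in replicate 2. The part of these differences in the suppressors' values was not tested.

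Of the 3 other SOCS genes tested, Socs5 rose in the tumour against tumour-bearing spleen and the other 2 did not pass. Socs5 averaged 49.9 ± 7.22 CPM (SD, n = 4) in tumour NK against 17.2 ± 4.32 (SD, n = 4) in tumour-bearing spleen, a log2 difference of 1.53 (adjusted p = 7.47e-05). The difference was 0.67 for Socs4 (adjusted p = 0.116) and 0.56 for Socs7 (adjusted p = 0.0569), although tumour libraries lay above tumour-bearing spleens for both. Against healthy spleen all 3 passed, with 1.93 for Socs5, 1.21 for Socs4 and 0.82 for Socs7. Of all tested genes 15.8% were called higher against tumour-bearing spleen and 16.5% against healthy spleen. Socs6 had too few counts to be tested. Elob, Eloc, Cul5 and Rnf7 encode the proteins through which SOCS proteins form a ubiquitin ligase. They differed by −0.25, 0.43, −0.14 and 0.02 on the log2 scale, and none of the 4 passed the test in any of the 3 comparisons. Calls over all genes, in either direction, came to 29% against tumour-bearing spleen, 30.5% against healthy spleen and 1.58% between the spleens.

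Together with these other SOCS genes and ligase partners, the 9 lists of pathway genes hold 91 genes besides the 4 suppressors, of which 84 were tested. Il2ra, Iigp1 and Lif averaged under 3 counts per library in both spleen groups, so that a difference from the tumour could only be a rise, and they are left out of the counts that follow. In tumour against tumour-bearing spleen 34 of the other 81 were called higher and 8 lower, with a median log2 difference of 0.48 against 0.00 over all genes, where 15.8% of all genes were called higher and 13.2% lower. Against healthy spleen 37 were higher and 7 lower, where 16.5% of all genes were higher and 14% lower. Between the spleens 6 were higher and none lower, where 1.23% of all genes were higher and 0.354% lower.

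Upstream of the suppressors, 3 of 15 cytokine receptor genes rose and 2 fell in tumour against tumour-bearing spleen. Of all tested genes 15.8% were called higher and 13.2% lower there. Il2ra, the high-affinity chain for interleukin 2, averaged 26.02 ± 9.51 CPM (SD, n = 4) in tumour NK and had 0 counts in all 4 tumour-bearing spleens, which makes it at least 13.6-fold higher against 3 counts in each spleen library. Ifngr1, a chain of the interferon gamma receptor, rose by 1.33 on the log2 scale (adjusted p = 1.88e-06), and Il21r by 1.13 (adjusted p = 0.000517). Il10ra fell by 1.06 (adjusted p = 3.74e-06) and Il27ra by 0.49 (adjusted p = 0.00549). The chains that bind interleukin 15 on NK cells are named here after their values were seen. The log2 difference was 0.37 for Il2rb (adjusted p = 0.0896), −0.02 for Il2rg (adjusted p = 0.950) and 0.44 for Il15ra (adjusted p = 0.134). Against healthy spleen Il2rb rose by 0.78 (adjusted p = 0.00211). Il2rg, at 0.12 (adjusted p = 0.631), and Il15ra, at 0.08 (adjusted p = 0.825), did not pass there.

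Of the 4 JAK genes, Jak2 rose by 1.00 (adjusted p = 2.93e-05) and Tyk2 fell by 0.94 (adjusted p = 4.00e-05), while Jak1, at 0.22, and Jak3, at 0.14, did not pass. Among the STAT genes, Stat3, which encodes the factor best known to drive Socs3, averaged 570.3 ± 90.3 CPM (SD, n = 4) in tumour NK against 187.4 ± 22.1 (SD, n = 4), a log2 difference of 1.60 (adjusted p = 4.73e-08). Stat2 rose by 0.45 (adjusted p = 0.0231). In all, 3 of the 7 STAT genes were called higher and none lower, and of the 4 JAK genes 1 was higher and 1 lower. The shares over all genes were 15.8% higher and 13.2% lower. Stat5a and Stat5b, the factors that drive Cish and Socs2, differed by −0.20 (adjusted p = 0.478) and 0.07 (adjusted p = 0.781). Transcript levels say nothing of whether a STAT protein is phosphorylated.

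**Figure D4:**
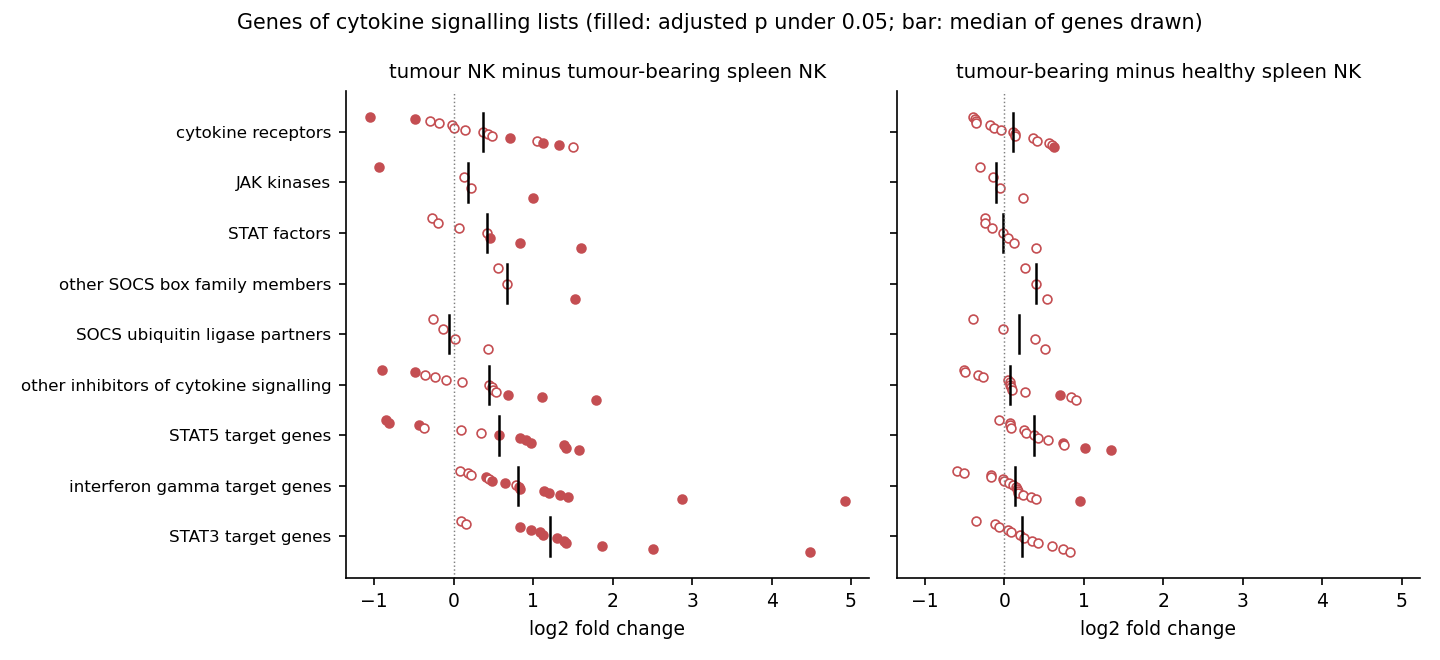
Log2 fold change (horizontal) of each tested gene of 9 cytokine signalling lists, tumour against tumour-bearing spleen (left) and tumour-bearing against healthy spleen (right); points are offset vertically for legibility, filled points have an adjusted p under 0.05, and bars are medians of the genes drawn. Il2ra, Iigp1 and Lif are not drawn, since they averaged under 3 counts per library in the spleens; the bars of the 3 target gene lists lie right of 0 on the left.

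Known target genes of cytokine signalling were counted as 3 lists, which share genes (Pim1, Myc, Bcl6 and Mcl1 are targets of both STAT5 and STAT3). Of 13 STAT5 targets 7 were higher and 3 lower in tumour than in tumour-bearing spleen, with a median log2 difference of 0.57. In this comparison 15.8% of all tested genes were called higher and 13.2% lower, which also applies to the 2 lists that follow. Pim3 rose by 1.58 (adjusted p = 3.79e-06) and Pim1 by 1.42 (adjusted p = 1.03e-07), both survival kinases. The fallers were Prf1, which encodes perforin, by 0.85 (adjusted p = 0.00222) and the cyclin genes Ccnd3, by 0.82 (adjusted p = 0.000147), and Ccnd2, by 0.44 (adjusted p = 0.0241). Of 16 targets of interferon gamma 11 were higher and none lower, with a median of 0.80. Cxcl10, a chemokine gene, rose by 4.93 (adjusted p = 5.36e-10) and Cd274, which encodes PD-L1, by 2.88 (adjusted p = 1.41e-07). Iigp1 averaged 18.5 CPM in tumour NK and 0.908 CPM in tumour-bearing spleens, under the level of 3 counts. Of 12 STAT3 targets 10 were higher and none lower, with a median of 1.22. Vegfa, a growth factor gene for blood vessels, rose by 4.48 (adjusted p = 3.85e-09) and Junb by 2.51 (adjusted p = 7.39e-08), and Lif averaged 14.3 CPM against 0.96. Junb and Fos are immediate early genes as well.

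Among 13 other inhibitors of cytokine signalling 3 were higher and 2 lower in tumour than in tumour-bearing spleen. The shares of all genes were 15.8% higher and 13.2% lower. Usp18, which shuts off the type I interferon receptor, rose by 1.79 (adjusted p = 2.08e-05), the adaptor gene Sh2b3 by 1.11 (adjusted p = 0.000125) and the phosphatase gene Ptpn1 by 0.68 (adjusted p = 0.00176). Pias3, an inhibitor of STAT3, fell by 0.90 (adjusted p = 0.000402), and the phosphatase gene Ptpn6 fell by 0.49 (adjusted p = 0.00648). Between the spleens the 6 pathway genes that were higher in tumour-bearing mice were Gzmb (1.34, adjusted p = 0.000135), Pim2 (1.01, adjusted p = 0.00104), Irf8 (0.95, adjusted p = 0.00251), Ccnd2 (0.74, adjusted p = 0.0132), Ptpn6 (0.70, adjusted p = 0.00913) and Il27ra (0.63, adjusted p = 0.0168). Gzmb, Pim2 and Ccnd2 are on the STAT5 list and Irf8 is on the interferon gamma list.

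Likeness to each suppressor was taken as Pearson's r of log2 CPM over the 11 libraries, in 3 groups, so that most of it reflects the step between groups. Cish and Socs2 were alike at r of 0.968, Socs3 and Socs2 at 0.934, Socs3 and Cish at 0.918, and Socs1 was less like Cish (0.880), Socs2 (0.839) and Socs3 (0.803). The genes most like Cish were Samd4b (0.989), Ctla4 (0.985), Tmem176b (0.985), Gzmc (0.980) and Car2 (0.979). Ctla4 also led the list of Socs2 (0.981), followed by Gzmd (0.981), Lta (0.978), Ndfip1 (0.976) and Emb (0.976). Ctla4, which encodes an inhibitory receptor, averaged 104.1 ± 39.3 CPM (SD, n = 4) in tumour NK and 2.07 ± 2.37 (SD, n = 4) in tumour-bearing spleens. Tgif1 (0.997), Polg2 (0.996), Gadd45b (0.993), Tnfrsf12a (0.991) and Ier5l (0.990) were most like Socs3. Gadd45b, a gene of the stress response, averaged 895.8 CPM in tumour, 61.5 in tumour-bearing and 50.7 in healthy spleens, which repeats the single step of Socs3. Among those most like Socs1 were G3bp1 (0.984), Eif4a1 (0.968), Eif4e3 (0.962) and Arpc3 (0.962). Eif4a1, a translation initiation factor gene, averaged 135.0 CPM in healthy spleen, 203.1 in tumour-bearing spleen and 337.0 in tumour, the order of the Socs1 group means. For Socs1 the step between the spleens did not pass the main test. Gadd45b and Eif4a1 were picked for their likeness in these same libraries, so the shared patterns are no separate evidence.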

How the data were processed

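Per the labels' protocols, RNA of sorted NK cells was made into 3' end libraries with the method of the Amit lab. The authors deposited raw counts per gene symbol. The submitters' processing notes name bcl2fastq, STAR 2.4.2a, HTSeq and mm10, whose roles and settings are not given in the sources used here. No listed gene had a maximum below 6 counts. In the header of the deposited count table spaces stand in place of a tab between tumour replicates 3 and 4, so values were assigned by position. The labels call the replicates independent, without saying whether spleens and tumours came from the same mice.

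Counts were analysed in edgeR 4.0.16 (R 4.3.3) with filterByExpr on groups, TMM scaling (factors from 0.91 to 1.17) and 1 robust quasi-likelihood fit by group over the 11 NK libraries. P-values were adjusted by Benjamini-Hochberg over 8471 genes, with a threshold of 0.05. SEs are the absolute log2 fold divided by the root of F, and 95% intervals use the t quantile with the fit's degrees of freedom. CPM use TMM effective library sizes, and log2 CPM a prior count of 2. The code of the fit was run on simulated counts with the same dispersion for every gene. Such a run checks the code and cannot show that the fit suits these libraries. The ratio test (scipy 1.17.1) was chosen after seeing the data. DESeq2 1.42.0, other scalings, no filter, fewer groups, blocks and left-out libraries were tried as alternatives.

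The 4 genes, the gene lists and the tests were chosen with earlier results of these data known. Beside the 4, all genes of lists of up to 7 genes could be named, of longer lists the 3 called genes with the largest rise and the 3 with the largest fall in a contrast, and the 5 genes most like each suppressor (predicted genes left out). Ifngr2, Il6ra, Il4ra, Cxcl9 and Il10 of the lists were not analysed here, and Socs6 and Il12rb2 had too few counts. Results on some list genes are not reported here. The sCAF table was normalized apart and entered no comparison.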

Additional observations from a re-analysis of the deposited data

Results flagged for a closer look

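The 3 libraries of sCAFs, a subset of cancer-associated fibroblasts sorted from 4T1 tumours, were used in no comparison above, and they held all 4 suppressors above the level that a count of 0 allows (1.34 to 2.28 CPM). Socs3 was at 833.0, 571.3 and 579.6 CPM on raw totals, a mean of 661.3 ± 148.7 (SD, n = 3). Cish was at 221.0, 82.7 and 135.9 CPM, with a mean of 146.5 ± 69.8 (SD, n = 3). Socs1 was at 153.8, 51.6 and 69.1 CPM, with a mean of 91.5 ± 54.6 (SD, n = 3), and Socs2 at 11.2, 14.4 and 40.5 CPM, with a mean of 22.1 ± 16.1 (SD, n = 3). Replicate 1 was the highest of the 3 for Socs3, Cish and Socs1 and the lowest for Socs2. The sCAF table is separate from the NK table, so these levels cannot be set against those of NK cells. In the NK libraries the 3 listed fibroblast marker genes of 11 summed to 5.80 to 30.3 CPM in tumour and 3.05 to 14.5 in tumour-bearing spleens, and the part of such cells in the NK values was not tested.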

How the results depend on the processing

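For the 8 differences between tumour NK and either spleen group, all 116 values under the alternatives tried kept their direction and passed the test. Under these alternatives 17.4% to 34.2% of all genes were called in either direction. Leaving out single libraries gave log2 differences from tumour-bearing spleen of 0.91 to 1.36 for Socs1, 2.92 to 3.18 for Socs3, 1.58 to 2.03 for Socs2 and 3.44 to 4.12 for Cish. Between the spleens, Socs1 passed the test in DESeq2 (1.11, adjusted p = 0.022; 1.85% of all genes called), in a fit of only these groups (1.11, adjusted p = 0.0279; 1.38% called) and with the side of the spleen split as a block (1.10, adjusted p = 0.000174; 8.34% called). It did not pass with any single library left out (0.99 to 1.25, adjusted p from 0.111 to 0.311). Socs2 between the spleens, never called, ran from −0.14 (without tumour-bearing spleen replicate 1) to 0.33 with single libraries left out, and was −0.051 with the side as a block. Also never called, Cish between the spleens ran from 0.44 (without tumour-bearing spleen replicate 1) to 1.14 (without its replicate 3) and Socs3 from 0.04 to 0.30 with single libraries left out. Pathway genes called between the spleens came to 22 with the side as a block (15 higher and 7 lower), against 6, while calls over all genes went from 1.58% to 8.34%. With single libraries left out they came to 3 to 7, with 3 without healthy spleen replicate 2. Calls over all genes were then 0.486% to 1.44%, lowest without that same replicate. With 1 library left out, the ratio tests cannot give an exact permutation p below 0.0571, and the 4 separated pairs kept their direction (Cish to Socs1 2.402 to 3.02, Cish to Socs2 1.77 to 2.30, Socs3 to Socs1 1.72 to 2.24, Socs3 to Socs2 1.10 to 1.58); the other 2 ran from 0.19 to 1.10 (Cish to Socs3) and 0.52 to 0.88 (Socs2 to Socs1). Same-numbered tumour and tumour-bearing spleen libraries deviated together only in part, with r of −0.047, 0.288, 0.002 and 0.211 for numbers 1 to 4. Over all 3 contrasts r ran from −0.353 to 0.501. The numbers were not taken as pairs, and the labels do not say whether spleens and tumours came from the same mice. Between tumour and tumour-bearing spleen the replicate block lowered the SE from 0.446 to 0.216 for Cish and from 0.25 to 0.161 for Socs1. It was 0.174 and 0.168 for Socs3, and 0.243 and 0.227 for Socs2. With the replicate block Socs1 between the spleens was 0.90 (adjusted p = 0.0388, with 1.36% of all genes called), and no other call on the 4 genes changed. Upper-quartile scaling moved the calls over all genes between tumour and tumour-bearing spleen from 1338 higher and 1115 lower to 1091 and 1530. Low spleen counts of Cish and Socs2 limit their precision, and p-values measure the spread between these libraries only.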
